A study of Mus musculus with 4 samples.

Results

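The leukocyte adhesion and homing genes Icam1, Vcam1, Selplg, Itgal, Itgb2, Itga4, Itgb1 and Itgb7 were examined in L1210 cells, a mouse lymphocytic leukemia line. Every probe whose gene symbol was one of these names was taken, which gave 14 probes for 8 genes out of 55681 probes and 24561 genes. The 4 lines compared were all L1210 cells of the DBA subline 212 background that had been infected with lentivirus, sorted for GFP and lysed as cultured cells. L1210-control, the control line below, carried the control transfection. The Fbxw11a, Fbxw11c and Fbxw11d lines (L1210-Fbxw11a and so on) are labelled as overexpressing a splice variant of Fbxw11, the substrate-binding subunit of an SCF ubiquitin ligase: Fbxw11a is the full-length form, Fbxw11c lacks exon 2, and Fbxw11d lacks exon 2 and exon 3. Each line was hybridized to 1 single-color Agilent array, so there are no replicates, no difference below was tested, and each difference is between 4 RNA samples rather than between conditions. Whether a line was a clone or a sorted pool was not given in the sources used here.

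Leukocytes leave the blood in steps. Selectins catch carbohydrate-bearing ligands such as PSGL-1, the product of Selplg, and slow the cell so that it rolls along the vessel wall. Integrins, each a pair of an alpha and a beta chain, then hold the cell firmly: the alpha L chain (Itgal) with the beta 2 chain (Itgb2) forms LFA-1, which binds Icam1, and the alpha 4 chain (Itga4) with the beta 1 chain (Itgb1) binds Vcam1, or with the beta 7 chain (Itgb7) binds the mucosal addressin Madcam1. Icam1 and Vcam1 are textbook targets of NF-κB, a pathway in which Fbxw11 acts by marking IκB for degradation.

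Among the 8 genes, differences from the control line were few. A dim probe of Vcam1 read lower in all 3 Fbxw11 lines, by 2-fold or more in the Fbxw11c line and the Fbxw11d line and by less than that in every line under another background correction (normexp). In addition, 1 of the probes of Itga4 was above background in the Fbxw11a line and in no other line, and Selplg and Itgal each had a probe that was higher in the Fbxw11a line than in the other lines. The beta chains Itgb2, Itgb1 and Itgb7 were bright in every line and differed by less than 2-fold with the scaling used here. Icam1 was not above background in any line.

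Several genes had probes that did not give the same answer, so the probes the results turn on are shown first. Positions are those the scanner files give on mm9. All letters are lower case because no stretch of a probe was singled out. For the probes near the 3′ end of their transcripts the first 30 of the 60 bases are shown.
Itga4 probe 1 (transcript NM_010576 from base 9754, chr2:79173193-79173252, plus strand): gtgtgtggaatgcattataaagatctaaca
Itga4 probe 2 (NM_010576 from base 2292, chr2:79153985-79155115, plus strand): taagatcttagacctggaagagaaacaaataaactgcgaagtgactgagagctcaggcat
Vcam1 probe 1 (NM_011693 from base 3060, chr3:115813216-115813275, minus strand): tatatttttataggcaaatggtaaagaggt
Vcam1 probe 2 (NM_011693 from base 842, chr3:115828953-115829012, minus strand): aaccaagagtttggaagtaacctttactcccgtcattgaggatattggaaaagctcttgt
Selplg probe 1 (NM_009151 from base 1635, chr5:114267807-114267834, minus strand): catggtaacccggtaagagaggagcttttg
Selplg probe 2 (NM_009151 from base 1145, chr5:114269206-114269265, minus strand): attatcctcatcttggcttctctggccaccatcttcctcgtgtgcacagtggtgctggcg
Itgal probe 1 (AK154115 from base 4428, chr7:134474711-134474767, plus strand): gtcccactgctctgtcttttattaacaatg
Itgal probe 2 (NM_008400 from base 3639, chr7:134477160-134477219, plus strand): acttgagagccctggctctgaccagcttca
Itga4 probe 2 spans 1131 bases of genome for its 60 bases, which places it across an intron. The coordinates given for Selplg probe 1 span 28 bases and those for Itgal probe 1 span 57 bases, so part of each 60-base probe has no position in the files. Over its full 60 bases, of which the first 30 are shown, Vcam1 probe 1 holds a stop codon in each reading frame of the printed strand. Whether the other probes lie in coding sequence was not given in the sources used here.

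Signals below are the background-subtracted processed signals of the scanner software, in arbitrary units, with each array brought to the 75th percentile of the control line, and ± is the error that the software gave for the spot. A probe was compared where the software called it well above background on either of the arrays set against each other, and it was counted as different at a fold of 2 or more, the cutoff that the study's methods use. Where only 1 of the pair of arrays had it above background, the fold is a bound, set against the higher of the dim array's detection limit and the dim spot itself. A difference is called larger than the error where it exceeds 2 times both the scanner error of the log2 ratio and the spread of multi-spot probes of like brightness. That spread is technical and within an array, so neither measure covers the variation between cultures. Apart from the choice of the brightest probe of a gene, the signal of 1 probe is not set against that of another.

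The arrays of the control line, the Fbxw11a line and the Fbxw11c line shared a slide, and that of the Fbxw11d line lay on another slide with its own scan, so slide, scan and variant cannot be told apart for the Fbxw11d line. Between 62.5% and 68.7% of probes were well above background per array. After scaling, the probes for the E1A spike-in RNA lay 0.13 and 0.16 above the control line on the log2 scale in the Fbxw11a line and the Fbxw11c line and 0.58 below it in the Fbxw11d line (log2 difference -0.58). Scaling to those probes would move the median log2 ratio of all genes in the Fbxw11d line from 0.039 to 0.66, and values below are relative to the 75th percentile. The probes of Fbxw11 gave log2 ratios to the control line of 0.31 and 0.21 in the Fbxw11a line, 0.27 and 0.22 in the Fbxw11c line and 0.025 and 0.18 in the Fbxw11d line. All were below the cutoff, so these arrays do not themselves show the overexpression that the labels give. The paper reports checking it in these lines with real-time RT-PCR and with western blots. Whether the Fbxw11 probes can read the introduced sequence was not tested. Defining lymphoid markers were only partly detected. Of 10 B-lineage genes 5 were above background in each line, among them Blnk, and Ebf1, Cd79b, Ms4a1 and Rag1 were not. Of 10 T-lineage genes 6 or 7 were, Cd4 and Cd3e among them, whereas Cd3d and Cd3g were not. Of 10 myeloid genes 7 or 8 were above background, Csf3r and Ly6g among them, whereas Lyz2 and Fcgr3 were not in any line. Csf3r ran from 43288.5 in the Fbxw11d line to 59142.1 in the Fbxw11c line. Of 10 genes of endothelial cells, a usual source of Vcam1, 5 to 7 were above background, among them Egfl7 and Kdr, with Tek, Emcn and Robo4 at background throughout. Stromal genes had 6 to 8 of 10, with Fn1 at 29007 to 34460 and Pdgfrb and Thy1 not above background in any line. Of 5 general leukocyte genes 2 or 3 were detected, with Ptprc, the gene of CD45, at 42.9 in the control line and Spi1 and Cd53 not above background. In RNA from a whole culture, fewer cells expressing a gene and less RNA per cell cannot be told apart.

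**Figure D1:**
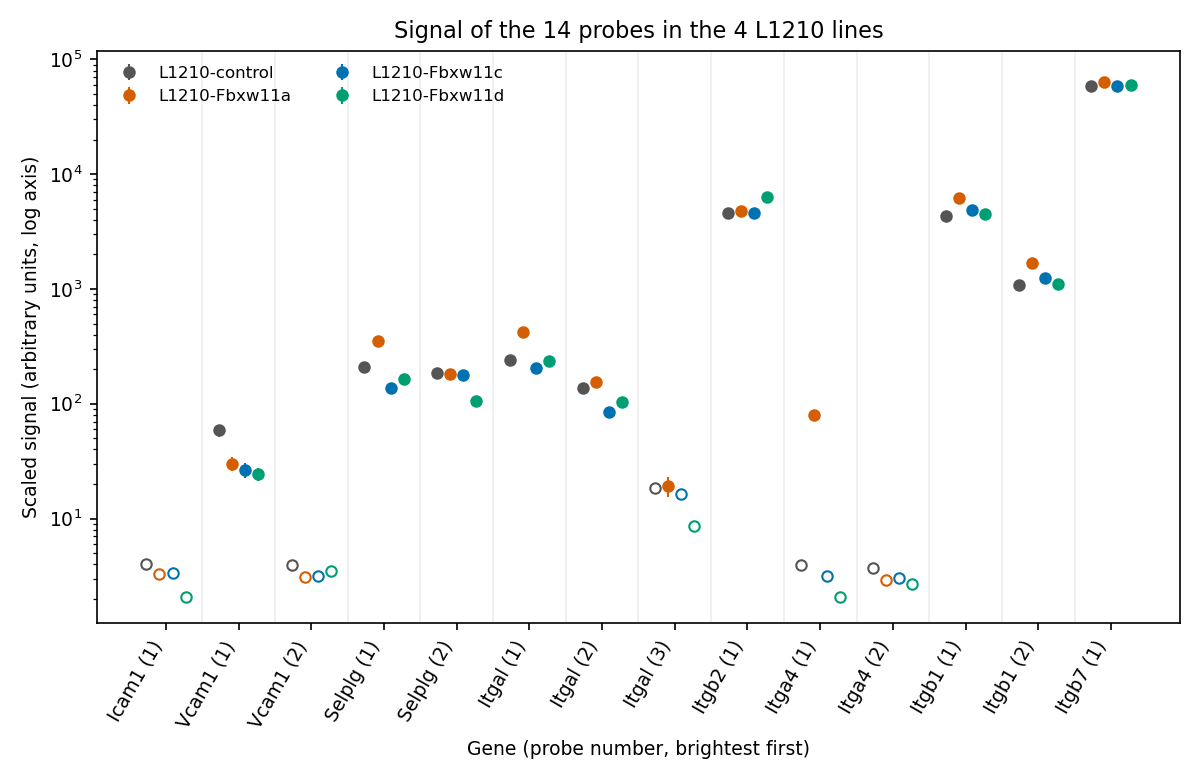
Scaled signal (arbitrary units, log axis) of each of the 14 probes in the control line (gray), the Fbxw11a line (orange), the Fbxw11c line (blue) and the Fbxw11d line (green), 1 array per line. Filled points are well above background and carry the scanner error as a bar, often smaller than the point, and open points are not above background. The heights of different probes are not comparable; within a probe, Itga4 probe 1 is filled only in the Fbxw11a line, and Vcam1 probe 1 is highest in the control line.

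At a fold of 2 against the control line, 1 of the 7 genes compared was called in the Fbxw11a line, where 4.45% of all genes compared were called. In the Fbxw11c line it was 1 of 6, against 3.88% of all genes, and in the Fbxw11d line 1 of 6, against 5.75%. The call in the Fbxw11a line was Itga4, which was compared only through its signal there and could only be called higher. With so few members, 1 call says nothing about the group as such. Over the 6 genes measured on all arrays, the median log2 ratio was 0.32 in the Fbxw11a line, -0.12 in the Fbxw11c line and -0.017 in the Fbxw11d line, beside medians of 0.0041, 0.017 and 0.039 over all genes. The 3 comparisons share the single control array, so an error in that array enters all of them.

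Vcam1 encodes an immunoglobulin-family ligand on activated endothelium and stroma that alpha 4 integrins grip. Its probe 1 read 58.8 ± 7.01 in the control line, 30.1 ± 4.25 in the Fbxw11a line, 26.6 ± 4.13 in the Fbxw11c line and 24.4 ± 3.20 in the Fbxw11d line. The control stood above the Fbxw11 lines, and the 3 Fbxw11 lines lay within the error of each other. The signal was 1.95-fold lower in the Fbxw11a line (log2 ratio -0.97, scanner error 0.27), which falls just short of the cutoff. It was 2.21-fold lower in the Fbxw11c line (log2 ratio -1.14, scanner error 0.28) and 2.41-fold lower in the Fbxw11d line (log2 ratio -1.27, scanner error 0.26), and both were called. The probe is dim, with a detection limit of 18.1 in the control line and 10.4 to 14.9 in the other lines, and multi-spot probes of like brightness had a spread of 0.43 to 0.63 on these log2 ratios, so the differences in the Fbxw11c line and the Fbxw11d line passed 2 times the spread only narrowly. No array had probe 2 of Vcam1 well above background, at 3.11 to 3.93, and it gives no ratio. With normexp background correction the log2 ratios of probe 1 shrank to -0.34, -0.52 and -0.91 in the Fbxw11a, Fbxw11c and Fbxw11d lines and none reached the cutoff, and with scaling to the spike-in probes that of the Fbxw11d line was -0.65. Of the endothelial markers, Egfl7 read 8524, 9818, 11146 and 8831 in the control, Fbxw11a, Fbxw11c and Fbxw11d lines and was lowest in the control line. Cldn5 (41.1, 51.4, 32.1 and 31.9) was highest in the Fbxw11a line. Kdr (5997, 5917, 5540 and 4861), Flt1 (1529, 1297, 1220 and 1142) and Vwf (53.2, 43.4, 47.6 and 24.6) were highest in the control line, as Vcam1 was. Of their differences from the control line, only that of Vwf in the Fbxw11d line (log2 ratio -1.12) reached the cutoff. The median log2 ratio of the 5 endothelial markers measured on both arrays was -0.019 in the Fbxw11a line, -0.16 in the Fbxw11c line and -0.37 in the Fbxw11d line. Tek, Emcn and Robo4 were at background and the lines had been sorted for GFP. Whether any endothelial cells added to the Vcam1 signal was not tested.

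Icam1, the LFA-1 ligand that many leukocytes and endothelial cells display once activated, was represented by 1 probe, which maps to chr9:20832290-20832349 on the plus strand. It read 4.01 ± 4.03 in the control line, 3.29 ± 3.30 in the Fbxw11a line, 3.34 ± 3.35 in the Fbxw11c line and 2.07 ± 2.08 in the Fbxw11d line. No array had it well above background, and each error was as large as the signal, so no fold is given.

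Itga4, the alpha 4 chain shared by the receptors for Vcam1 and Madcam1, had a pair of probes, and only 1 of them gave a signal. Probe 1 read 3.97 ± 3.71 in the control line, 80.1 ± 8.55 in the Fbxw11a line, 3.16 ± 3.17 in the Fbxw11c line and 2.07 ± 2.08 in the Fbxw11d line. Only the Fbxw11a line was well above background, and the other 3 lines were at background. The signal in the Fbxw11a line was at least 4.43-fold higher than in the control line and at least 5.39-fold higher than in the Fbxw11c line, and in the Fbxw11d line it was at least 7.70-fold lower than in the Fbxw11a line. None of these bounds was counted as larger than the error. The scanner errors of the log2 ratios, each taken with a spot at background, were 1.36, 1.45 and 1.46 in that order. Probe 2, which reads the same transcript nearer its start, read 3.70, 2.90, 3.02 and 2.69 in the control, Fbxw11a, Fbxw11c and Fbxw11d lines and stayed at background in every line, the Fbxw11a line included. Each probe was a single spot per array, so the value of 80.1 has no second spot behind it.

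Other probes showed the same pattern. In the Fbxw11a line, 880 of 55681 probes were above background there and on none of the other 3 arrays, and 118 of them showed a smallest fold as large as that of Itga4 probe 1. The nearest probe on the opposite strand, which reads Cerkl from 405 bases away, was not above background on any array, at 2.83 to 5.00. With normexp the log2 difference of Itga4 probe 1 between the Fbxw11a line and the control line came to 0.89, below the cutoff.

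The partner chains of Itga4 were well above background in every line. Itgb1, the beta 1 chain that pairs with many alpha chains, had a pair of probes. Probe 1 read 4364 ± 436 in the control line, 6245 ± 624 in the Fbxw11a line, 4914 ± 491 in the Fbxw11c line and 4534 ± 453 in the Fbxw11d line. Probe 2 read 1086 ± 109, 1670 ± 167, 1243 ± 124 and 1099 ± 110 in the same order of lines. The Fbxw11a line was the highest line with both probes and the control the lowest, and the order of the 4 lines was the same.

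In the Fbxw11a line, Itgb1 was 1.43-fold higher than in the control line with probe 1 (log2 ratio 0.52, scanner error 0.20) and 1.54-fold higher with probe 2 (log2 ratio 0.62, scanner error 0.20), larger than the error both times and short of the cutoff. The ratios of the Fbxw11c line were 0.17 and 0.20 and those of the Fbxw11d line 0.055 and 0.017, all within the error. With scaling to the spike-in probes the log2 ratio of probe 1 in the Fbxw11d line was 0.68. The 2 probes differed by 0.10 on the log2 ratio in the Fbxw11a line, beside a median of 0.16 over the 4476 genes with several measured probes. Probe 1 spans 5896 bases at chr8:131250081-131255976, across an intron, and probe 2 lies at chr8:131246349-131246408, so both read the plus strand of the same gene at separate places.

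Itgb7, the beta 7 chain of the gut-homing integrin, was bright and nearly flat with the scaling used here. Its probe, at chr15:102046450-102046509 on the minus strand, read 59041 ± 5904 in the control line, 64171 ± 6417 in the Fbxw11a line, 58084 ± 5808 in the Fbxw11c line and 59337 ± 5934 in the Fbxw11d line. All 4 lines lay within the error of each other, with log2 ratios to the control line of 0.12, -0.024 and 0.0072. With scaling to the spike-in probes the log2 ratio of the Fbxw11d line was 0.63. No spot on the arrays was marked as saturated.

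Selplg carries the name PSGL-1 at the cell surface, where it is the main leukocyte ligand of P-selectin. Probe 1 read 209.5 ± 21.3 in the control line, 351 ± 35.3 in the Fbxw11a line, 138 ± 14.2 in the Fbxw11c line and 165 ± 16.7 in the Fbxw11d line. The Fbxw11a line was the highest, the control line came next, and the Fbxw11c line and the Fbxw11d line lay within the error of each other. Against the control line this was 1.68-fold higher in the Fbxw11a line (log2 ratio 0.75, scanner error 0.21) and 1.52-fold lower in the Fbxw11c line (log2 ratio -0.60, scanner error 0.21), both larger than the error but short of the cutoff. The log2 ratio in the Fbxw11d line was -0.34, within the error, and 0.28 with scaling to the spike-in probes.

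Probe 2 of Selplg gave another picture. It read 186 ± 18.9 in the control line, 182 ± 18.5 in the Fbxw11a line, 177 ± 17.9 in the Fbxw11c line and 106 ± 10.8 in the Fbxw11d line. The first 3 lines lay within the error of each other, and the Fbxw11d line, the line on the other slide, was lower than all of them. Its log2 ratio to the control line was -0.80 (scanner error 0.21), beside -0.028 in the Fbxw11a line and -0.073 in the Fbxw11c line. Both probes were well above background on every array, so the high signal of the Fbxw11a line rests on probe 1 alone.

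Itgal, the alpha L chain of LFA-1, had 3 probes. Probe 1 read 240.3 ± 24.3 in the control line, 423 ± 42.4 in the Fbxw11a line, 206 ± 20.9 in the Fbxw11c line and 234 ± 23.4 in the Fbxw11d line. The Fbxw11a line stood above the other 3 lines, which lay within the error of each other, and it was 1.76-fold higher than the control line (log2 ratio 0.82, scanner error 0.21). Probe 2 read 137, 155, 85.1 and 104 in the same order of lines, with errors between 9.09 and 15.8. Here the control line and the Fbxw11a line were within the error of each other (log2 ratio 0.18), and the Fbxw11c line was 1.61-fold lower than the control line (log2 ratio -0.68, scanner error 0.22).

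Both bright probes of Itgal gave the same order of the 4 lines, with the Fbxw11a line highest, then the control line, the Fbxw11d line and the Fbxw11c line, and the size of the gaps differed between them. Probe 1 was designed on the cDNA AK154115 and lies before probe 2, designed on NM_008400, along the gene's strand. Probe 3, at chr7:134477064-134477123, was near background, with 18.4 in the control line, 19.2 in the Fbxw11a line, 16.2 in the Fbxw11c line and 8.65 in the Fbxw11d line, and only the Fbxw11a line was well above background.

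Itgb2, the beta chain that every LFA-1 molecule needs, read 4551 ± 455 in the control line, 4731 ± 473 in the Fbxw11a line, 4592 ± 459 in the Fbxw11c line and 6300 ± 630 in the Fbxw11d line with its probe at chr10:77027978-77028037 on the plus strand. The 3 lines of the shared slide lay within the error of each other. The Fbxw11d line was 1.38-fold higher than the control line (log2 ratio 0.47, scanner error 0.20), larger than the error and short of the cutoff, and it is the line on the other slide. With spike-in scaling this log2 ratio was 1.09.

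**Figure D2:**
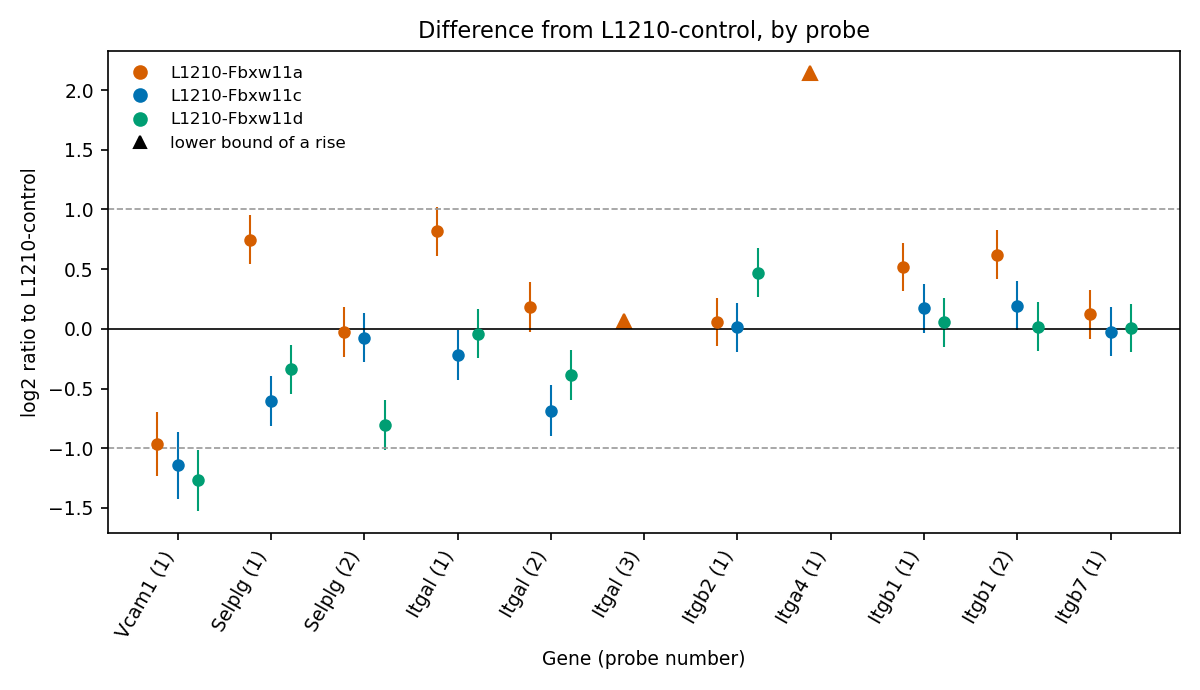
Log2 ratio of each Fbxw11 line to the control line for the 11 probes compared in at least 1 line: points are measured ratios with the scanner error of the ratio as a bar, and triangles are lower bounds, drawn where only the Fbxw11 line was above background. Dashed lines mark a fold of 2 in each direction. The 3 points of Vcam1 lie near or below the lower line, Itga4 probe 1 has a bound of 2.15, and the points of Selplg and Itgal shift between probes of the same gene.

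The Fbxw11 lines were also set against each other. Between the Fbxw11a line and the Fbxw11c line, which share a slide and which differ in the construct by exon 2, 3 of the 7 genes compared were called and all 3 were higher in the Fbxw11a line, where 4.22% of all genes were called in either direction and 2.64% as higher. These were Itga4 by the bound given above, Selplg with probe 1 at 2.55-fold (log2 ratio 1.35, scanner error 0.21) and Itgal with probe 1 at 2.05-fold (log2 ratio 1.04, scanner error 0.21). Itgal probe 2 stood at 1.83-fold in the same direction (log2 ratio 0.87), whereas Selplg probe 2 showed a log2 ratio of 0.046, within the error. The probes of Selplg were 1.30 apart on this log2 ratio, beside a median of 0.14 over the genes with several measured probes, while those of Itgal were 0.17 apart. With the mean of the probes of each gene the log2 ratio of Selplg was 0.70 and that of Itgal 0.72, below the cutoff, and Itgal fell to 0.95 with median centering and 0.92 with normexp. Itga4 was compared only through its signal in the Fbxw11a line, so it could only be called higher in that line. With probes above background on both arrays, 2 calls were left. With so few members, these counts say nothing about the group as such.

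The Fbxw11d line against the Fbxw11a line gave 2 calls among 7 genes, both lower in the Fbxw11d line, where 6.02% of all genes were called in either direction and 5.04% as lower. Itga4 was called by its bound. It was compared only through its signal in the Fbxw11a line, so it could only be called lower in the Fbxw11d line. Selplg probe 1 was 2.12-fold lower (log2 ratio -1.09, scanner error 0.21), with probe 2 at 1.71-fold lower (log2 ratio -0.78, scanner error 0.21). With probes above background on both arrays, 1 call was left. The log2 ratio of Selplg probe 1 fell short of the cutoff with median centering (-0.85), normexp (-0.91), the deposited log2 values (-0.99) and spike-in scaling (-0.36). Itgal probe 1 was 1.81-fold lower and probe 2 was 1.49-fold lower, both beyond the error and short of the cutoff. Between the Fbxw11d line and the Fbxw11c line none of 6 genes was called, where 4.23% of all genes were. Selplg probe 2 was 1.66-fold lower in the Fbxw11d line there (log2 ratio -0.73), and Itgb2 was 1.37-fold higher (log2 ratio 0.46), both larger than the error. With spike-in scaling Itgb2 stood at 1.25 and Selplg probe 1 at 1.06 there, past the cutoff. Each comparison with the Fbxw11d line also crosses slides.

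Over the 4 lines together, the log2 range of the brightest probe was 1.35 for Selplg, 1.27 for Vcam1, 1.04 for Itgal, 0.52 for Itgb1, 0.47 for Itgb2 and 0.14 for Itgb7. The median range of the 16249 genes above background on all arrays was 0.35. The genes whose centered log2 profile over the 4 arrays lay closest to that of Vcam1 were Dhrs3 and Bcl2l15, at a root mean square difference of 0.057 and 0.061. Those closest to Selplg probe 1 were Car6 (0.037) and 2310042E22Rik (0.063), and those closest to Itgal probe 1 were Faddos (0.026) and Capn5 (0.033). Likeness over 4 arrays is given as a description only.

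Other genes of the adhesion pathway were examined by list. Of 21 other integrin subunits, 15 could be compared with the control line in at least 1 Fbxw11 line and 3 were called in at least 1, where 9.16% of all genes so compared were called. The medians of their log2 ratios were 0.18, 0.063 and 0.034 in the Fbxw11a, Fbxw11c and Fbxw11d lines. Itga11, a collagen receptor chain, was the only one called in more than 1 line: it read 32.4 in the control line, 10.9 in the Fbxw11a line, 24.4 in the Fbxw11c line and 13.0 in the Fbxw11d line, at least 2.26-fold lower in the Fbxw11a line and 2.50-fold lower in the Fbxw11d line. The other two, named after their values were seen, were Itga2b, the platelet alpha IIb chain, at 3.72-fold higher in the Fbxw11a line, and its partner Itgb3 at 2.01-fold higher in the Fbxw11c line. All 3 are dim probes, and with normexp none of these calls was left.

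Itgam, which forms Mac-1 with Itgb2, read 5119, 4671, 4791 and 4978 in the control, Fbxw11a, Fbxw11c and Fbxw11d lines, and its differences from the control line stayed within a log2 ratio of -0.13. Itgax and Itgad, the other Itgb2 partners, and Itgae, which pairs with Itgb7, were not well above background on any array. Among the alpha chains that pair with Itgb1, Itga6, a laminin receptor chain, read 46905 in the control line, 73887 in the Fbxw11a line, 68855 in the Fbxw11c line and 61012 in the Fbxw11d line. Its log2 ratios to the control line were 0.66 and 0.55 in the Fbxw11a line and the Fbxw11c line, more than 2 times the scanner error, and 0.38 in the Fbxw11d line, which was not. Itga1, a collagen receptor chain named after its values were seen, read 44.0, 58.6, 74.6 and 85.2 in the control, Fbxw11a, Fbxw11c and Fbxw11d lines, and its log2 ratios of 0.41, 0.76 and 0.95 all fell short of the cutoff. Itga11, given above, is also a partner of Itgb1. Itga5, a fibronectin receptor chain, read 202, 228, 183 and 217, and Itgav read 290.4, 249.8, 249 and 251, with no log2 ratio beyond -0.22 in either.

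The receptors and ligands on the other side of the contact were measured too. Madcam1, the addressin bound through Itgb7, read 56.1 in the control line, 59.9 in the Fbxw11a line, 67.3 in the Fbxw11c line and 94.5 in the Fbxw11d line, where it was 1.69-fold higher than the control. Icam2, a second LFA-1 ligand, read 177, 262, 203 and 209, and was 1.48-fold higher in the Fbxw11a line. Selp, the platelet and endothelial selectin that binds PSGL-1, read 1844, 1651, 1187 and 1382, lower than the control by 1.55-fold in the Fbxw11c line. Sele read 22.5 in the control line and 20.8 in the Fbxw11a line and was at background in the Fbxw11c line and the Fbxw11d line.

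Of 18 selectins and genes that build selectin ligands, 16 could be compared in at least 1 line and 3 were called in at least 1, beside the same 9.16% of all genes. These 3, picked for naming once their values were known, were each called as lower. In the Fbxw11d line, which holds a pair of these calls, 866 of all genes were called lower and 194 higher. Sele was at least 2.16-fold lower in the Fbxw11d line, and Glycam1, a mucin that carries selectin ligands, at least 2.80-fold lower there. In the Fbxw11a line Glycam1 stood at 51.1 against 29.2 in the control line, 1.75-fold higher (log2 ratio 0.81) and short of the cutoff, the highest measured log2 ratio of the list in that line. Gcnt1, the branching enzyme that prepares PSGL-1 for selectin binding, was 2.22-fold lower in the Fbxw11a line. With normexp none of the 3 was called. The list's medians were 0.12, 0.069 and 0.088 in the Fbxw11a, Fbxw11c and Fbxw11d lines. None of the 19 genes compared of 20 in integrin activation, among them the talin gene Tln1 and the kindlin gene Fermt3, was called in any line, with medians of 0.064, 0.035 and 0.020. Of 16 other adhesion and transmigration receptors, 13 of them compared, the junctional molecule Jam2 alone was called, at 2.11-fold lower in the Fbxw11d line, a call lost with normexp, quantile normalization, median centering and the deposited log2 values, and the medians were -0.066, 0.023 and 0.10. Of the 10 genes of lymphocyte traffic 7 were compared and none was called, with medians of 0.0089, -0.049 and 0.068.

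**Figure D3:**
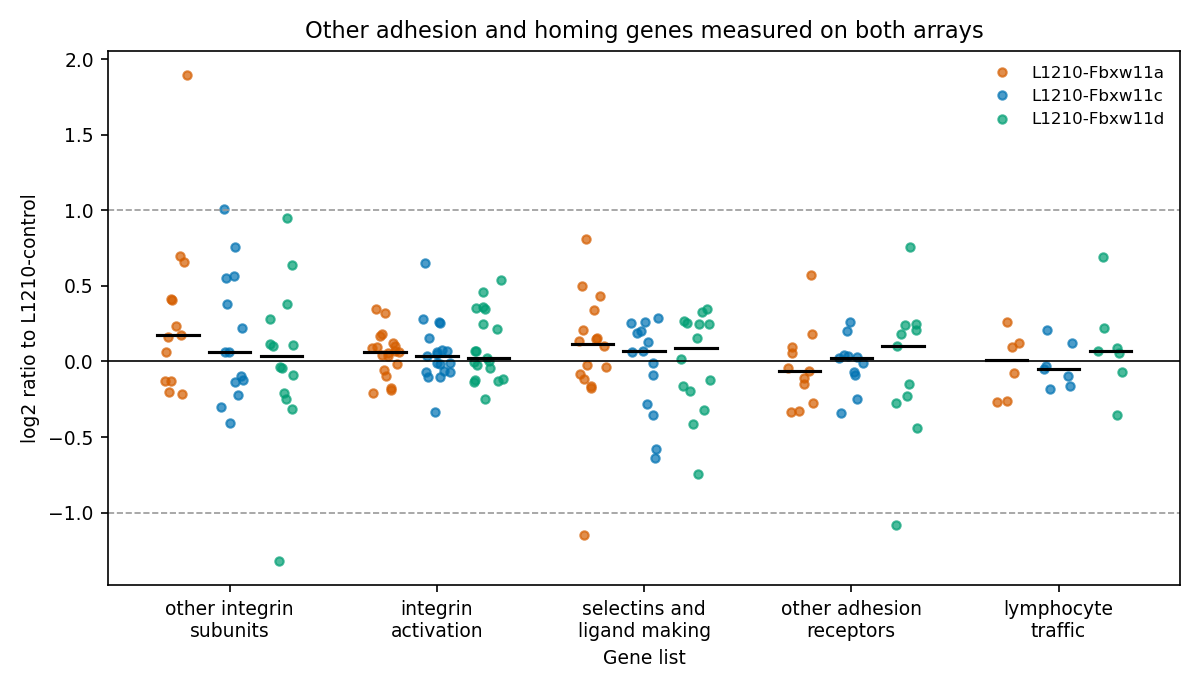
Log2 ratio to the control line of the genes of 5 lists (other integrin subunits, integrin activation, selectins and ligand making, other adhesion receptors, lymphocyte traffic) in the Fbxw11a line (orange), the Fbxw11c line (blue) and the Fbxw11d line (green). Each point is a gene above background on both arrays, short bars are medians, and dashed lines mark a fold of 2, so genes with only a bound are not drawn. Most points lie within the dashed lines, and the medians lie between -0.066 and 0.18.

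**Figure D4:**
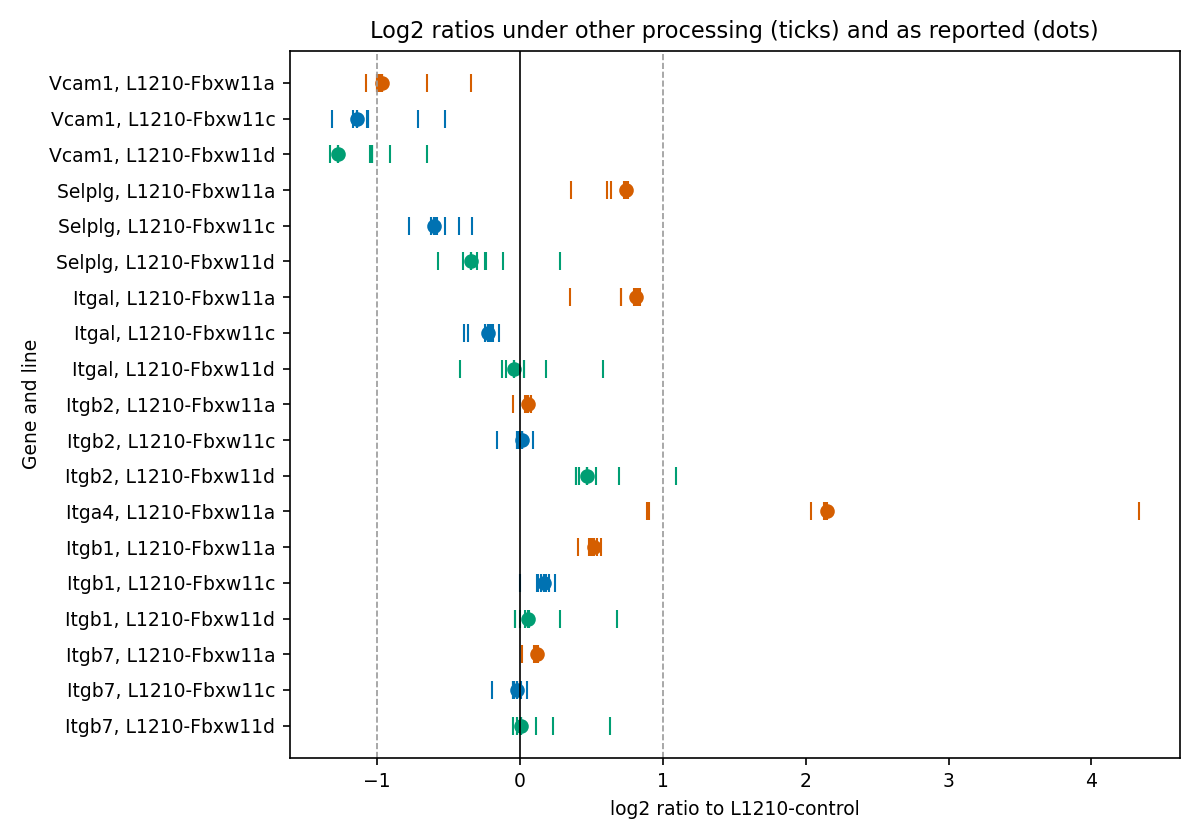
Log2 ratio to the control line of 7 genes, for the brightest probe as reported (dots) and under each other way of processing that gives a ratio (ticks). Colors are orange for the Fbxw11a line, blue for the Fbxw11c line and green for the Fbxw11d line, and dashed lines mark a fold of 2. The tick for the mean of all probes takes in every probe of the gene. The dot of Itga4 is a bound, and its tick at 4.33 is the unfiltered ratio to a background spot. Vcam1 stays below 0 throughout, from -1.33 to -0.34, while the ratios of the Fbxw11d line for Selplg, Itgal, Itgb1 and Itgb7 fall on both sides of 0, as do those of the Fbxw11c line for Itgb1, Itgb2 and Itgb7 and of the Fbxw11a line for Itgb2.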

How the data were processed

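Total RNA of 4 L1210 lines was labeled with Cy3 and hybridized to Agilent 8x60K mouse arrays, 1 array per line. The authors deposited scanner output per array, with processed signal intensity, its error and background calls per spot, made with Agilent Feature Extraction (version 10.7.1.1 per the file headers, 9.1 per the labels). They also deposited a table of normalized log2 values, whose normalization method was not given in the sources used here.

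From the intensities, outlier spots and control spots were left out, signals were divided by the 75th percentile of gene spots and taken to log2, and repeated spots were averaged. Background status followed the software's call, needing at least 0.5 of a probe's spots, and a gene was represented by its probe of highest mean signal. The spread of multi-spot probes used the 40 probes nearest in brightness among 393 with repeated spots. Differences were called at a fold of 2, and no test was run, since the number of arrays limits the precision. The calling script was tested on simulated data.

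The members and gene lists were chosen with earlier results of these data known. Named from the lists were genes called in at least 2 of 3 comparisons with L1210-control, the integrin partners Itgam, Itgax, Itgad, Itgae, Itga5, Itga6 and Itgav, Madcam1, Icam2 and the selectins. A gene of this set is not reported here. Likeness was the root mean square difference of centered log2 profiles, for members with a log2 range of 1 or more. The 11 other settings tried were normexp background correction (limma 3.58.1, R 4.3.3, offset 50), quantile normalization, median centering, the deposited log2 values, no filter on dim probes, both arrays above background, outlier spots kept, folds of 1.5 and 3, the mean of all probes, and the percentile over probes above background on all arrays. Scaling to the spike-in probes was added after seeing the data. Python 3.11.15 was used for the rest. Strand and positions are those of the files, on mm9.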

Additional observations from a re-analysis of the deposited data

Results flagged for a closer look

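Selplg probe 1 moved in opposite directions in 2 of the Fbxw11 lines, each time by more than the error: the log2 ratio to the control line was 0.75 in the Fbxw11a line and -0.60 in the Fbxw11c line. The difference between the lines was not tested, since each had 1 array. Probe 2 of the same gene gave -0.028 and -0.073.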

How the results depend on the processing

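No paired analysis was possible because each line had 1 array, and for the same reason there was no replicate to leave out. Of 387 values of the members under the alternatives, 345 moved by less than the error of the difference, 42 moved by more, and no called value changed sign. Many of these values could not move. Keeping outlier spots or requiring both arrays above background changed no member ratio that was left, and dropping the filter changed only Itga4. With normexp, Itga4 in the Fbxw11a line against the control line went from 2.15 to 0.89 and lost its call. That counted as less than the error, the scanner error being 1.36.

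Counts of members called against the control line in the Fbxw11a line (1 as reported) became 0 with normexp, with probes above background on both arrays or with the mean of all probes, 2 with quantile normalization, the deposited log2 values or spike-in scaling, where Vcam1 passed the cutoff, and 4 at a fold of 1.5. In the Fbxw11c line the count of 1 became 0 with normexp, a fold of 3 or the mean of all probes, and 2 at a fold of 1.5. In the Fbxw11d line the count of 1 became 0 with normexp or a fold of 3, and with spike-in scaling it stayed 1 but was Itgb2 (log2 ratio 1.09), with Vcam1 at -0.65. Between the Fbxw11a line and the Fbxw11c line the count of 3 became 2 with normexp, median centering or probes above background on both arrays, and 1 at a fold of 3 or with the mean of all probes. Between the Fbxw11d line and the Fbxw11a line the count of 2 became 1 with normexp, quantile normalization, median centering, the deposited log2 values, probes above background on both arrays, a fold of 3 or the mean of all probes, 3 at a fold of 1.5, and with spike-in scaling it stayed 2 with Itgb2 in place of Selplg. Between the Fbxw11d line and the Fbxw11c line it rose from 0 to 2 with spike-in scaling.

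Other integrin subunits (3 called) gave 0 with normexp, 7 with no filter on dim probes, 5 at a fold of 1.5 or with spike-in scaling and 1 at a fold of 3. Selectins and ligand-making genes (3) gave 0 with normexp or a fold of 3, 5 with no filter and 1 with both arrays above background. Under the remaining settings both lists gave 2 to 4. Other adhesion receptors (1) gave 0 with normexp, quantile normalization, median centering, the deposited log2 values, a fold of 3 or the mean of all probes, 3 with no filter and 2 at a fold of 1.5. Integrin activation (0) gave 1 at a fold of 1.5 and 2 with spike-in scaling, and lymphocyte traffic (0) gave 1 with no filter, a fold of 1.5 or spike-in scaling.

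Spike-in scaling moved the median log2 ratio of all genes to -0.10 in the Fbxw11a line, -0.16 in the Fbxw11c line and 0.66 in the Fbxw11d line, and median centering moved it to 0.26 in the Fbxw11d line. In that line 194 genes were called higher and 866 lower as reported, 412 and 579 with median centering, 323 and 619 with quantile normalization, 316 and 614 with the deposited log2 values, and 2246 and 334 with spike-in scaling. Selplg in that line went from -0.34 to 0.28 with spike-in scaling. Low signal limited Icam1, Itga4, Vcam1 probe 2 and Itgal probe 3. The cause of these shifts was not tested.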

Other observations

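A few receptors that guide lymphocytes between blood and lymphoid tissue are given here, named after their values were seen. Ccr7, the receptor that directs lymphocytes to lymph nodes, read 8438 in the control line, 9011 in the Fbxw11a line, 7427 in the Fbxw11c line and 8042 in the Fbxw11d line, with log2 ratios to the control line of 0.095, -0.18 and -0.069. Cxcr4, which holds precursors in bone marrow, and S1pr1, which lets lymphocytes leave lymphoid tissue, were not well above background on any array. Cd44, a hyaluronan receptor that can also carry selectin ligands, read 3682, 4089, 4389 and 4369 in the same order of lines, and none of its log2 ratios exceeded 0.25.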
